A study of Mus musculus with 6 samples.

Results

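The mRNA levels of the genes that lie next to the endogenous Sim2 gene on mouse chromosome 16 were examined in embryonic stem (mES) cells that express Sim2 from a transgene placed elsewhere in the genome. The neighbours were taken by position, as the genes of the deposited table that start between 93500000 and 94750000 on chromosome 16 of the mm9 build, with Sim2 itself left out. This gave 12 of the 22602 genes in the table, namely Setd4, Cbr1, Cbr3, Dopey2, Morc3, Chaf1b and Cldn14 before Sim2, and Hlcs, Ripply3, Pigp, Ttc3 and Dscr3 after it. At the edges of the window, Setd4 starts at 93583706 and Dscr3 at 94719331, and the nearest listed genes left outside were 1700029J03Rik, which starts at 93397060 and is listed at 0 in all 6 libraries, and Dyrk1a, which starts at 94791813 and had a mean of 17.3 RPKM (reads per kilobase of cDNA, scaled to the reads of the library).

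6 libraries of mRNA were compared. 3 came from the clones A6, B8 and C4, each 1 culture of a separate clone derived from the EBRTcH3 (EB3) line and carrying a Flag-tagged mouse Sim2 gene, followed by a Venus reporter, at the ROSA26 locus on chromosome 6. The other 3, numbered 0, 1 and 2, came from EB3 itself, the parental line with the same tetracycline-regulated system and Venus but no Sim2 transgene. All 6 cultures were grown with LIF on gelatin and were kept without tetracycline for 26 h, which switches on the transgene promoter, before RNA was collected. The study calls the EB3 libraries independent replicates, but the clones differ from EB3 also in having been selected and expanded singly, and this cannot be told apart from the expression of Sim2.

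SIM2 is a transcription factor of the bHLH-PAS family, which pairs with ARNT and binds DNA elements with the core ACGTG. In mouse the gene lies in the distal part of chromosome 16 that corresponds to human chromosome 21, and several of its neighbours were first described as genes of the Down syndrome region. The neighbours have unrelated functions. Cbr1 and Cbr3 are paralogs that encode carbonyl reductases, cytosolic enzymes of the short-chain dehydrogenase family that use NADPH to reduce ketones and quinones. The others act in membrane traffic, chromatin, protein modification and cell contacts. Since the transgene is on another chromosome, these genes show whether expression around the endogenous Sim2 gene differed between the clones and EB3. They do not show why.

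The sequences that separate the carbonyl reductases are shown because the comparison turns on 2 transcripts that reads must tell apart. The coding sequences of Cbr1 and Cbr3 (GENCODE vM1, 834 bases each) are 77.2% identical, and the longest run of bases shared by both transcripts is 50. The libraries were sequenced in reads of 100 bases. The most alike 100 bases of the coding sequences, coding bases 146 to 245 of each, differ at 6 positions, which are in capitals.
Cbr1: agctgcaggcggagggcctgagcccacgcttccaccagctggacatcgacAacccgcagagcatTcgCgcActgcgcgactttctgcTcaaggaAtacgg
Cbr3: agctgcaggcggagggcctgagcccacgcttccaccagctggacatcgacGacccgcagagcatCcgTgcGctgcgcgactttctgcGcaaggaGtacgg
A read from any place in these transcripts therefore crosses at least 1 difference, although the treatment of reads with several good positions was not stated.

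The 250 bases before the deposited start of Cbr1, Cbr3 and Dopey2 are printed next, read 5′ to 3′ from mm9, since these 3 genes follow each other on the same strand and include the one that was called and the genes on either side of it. Capitals mark the letters TGACNNNGC, the core of the antioxidant response element bound by NRF2, and ACGTG, on either strand.
Cbr1, chr16:93607832-93608081: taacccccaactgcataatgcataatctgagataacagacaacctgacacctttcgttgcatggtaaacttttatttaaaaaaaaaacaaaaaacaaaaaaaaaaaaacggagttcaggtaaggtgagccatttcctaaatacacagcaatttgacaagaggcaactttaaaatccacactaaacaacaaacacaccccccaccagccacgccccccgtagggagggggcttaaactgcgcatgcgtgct
Cbr3, chr16:93683214-93683463: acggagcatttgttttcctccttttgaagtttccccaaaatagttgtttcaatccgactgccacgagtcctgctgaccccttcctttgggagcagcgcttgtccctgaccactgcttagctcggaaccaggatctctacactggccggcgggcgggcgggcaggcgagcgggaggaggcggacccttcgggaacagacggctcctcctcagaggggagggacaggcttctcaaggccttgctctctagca
Dopey2, chr16:93711902-93712151: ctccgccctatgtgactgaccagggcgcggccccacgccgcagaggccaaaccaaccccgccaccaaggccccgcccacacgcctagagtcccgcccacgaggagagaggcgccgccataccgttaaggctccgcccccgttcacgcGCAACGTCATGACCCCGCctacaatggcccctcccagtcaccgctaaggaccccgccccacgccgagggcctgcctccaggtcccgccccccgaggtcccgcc
The window of Cbr1 holds 6 CG dinucleotides and 41.6% G and C, that of Cbr3 14 and 59.6%, and that of Dopey2 26 and 72.4%. Neither motif is present in the windows of Cbr1 and Cbr3, and Dopey2 holds TGACNNNGC on both strands, at bases -103 to -95 and -94 to -86. Over the 12 neighbours, ACGTG was found in 2 windows (Hlcs and Dscr3), TGACNNNGC in 2 (Dopey2 and Hlcs) and the longer TACGTG, which contains ACGTG, in 0. Of all 22602 windows of this length, 17.8% hold ACGTG, 10.7% hold TGACNNNGC and 2.75% hold TACGTG. These matches are a description of the letters only. The deposited starts lie within 10 bases of a start annotated in GENCODE vM1 for 11 of the 12 neighbours, while that of Dscr3 lies 188 bases away.

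The level of Sim2 mRNA serves as a check of the labels. A6, B8 and C4 had 196.0, 212.4 and 168.4 RPKM, against 0.130, 0.0917 and 0.104 RPKM in EB3-0, EB3-1 and EB3-2. All clones were far above all EB3 cultures. Transcripts of the transgene and of the endogenous gene are counted together, so the level of endogenous Sim2 mRNA in the clones was not measured. EB3-0 stood apart from EB3-1 and EB3-2, and leaving it out raised the number of genes called over the whole table from 81 to 692. Depth recovered from the RPKM values ran from 25095861 to 28269340 reads per library. All 7 ES cell markers were expressed, from 59.8 RPKM for Klf4 to 2568 RPKM for Dppa5a (means of 6 libraries). Of 6 fibroblast markers 1 reached a mean of 1 RPKM (Thy1, 11.9) and Postn was listed at 0, and the summed level of the list was 10.7 to 13.8 RPKM with the transgene and 10.1 to 13.3 without. Of 5 trophoblast markers 1 reached 1 RPKM (Eomes, 1.26), with sums of 1.80 to 2.56 RPKM with the transgene and 1.54 to 2.00 without. Of 5 listed neural markers, 4 had values and 3 reached a mean of 1 RPKM (highest Neurod1, 12.9). Their sums were 13.1 to 22.5 RPKM with the transgene and 13.5 to 21.9 without. The 5 primitive endoderm markers were all below 1 RPKM, and their sum was 2.08 to 2.49 RPKM with the transgene and 1.22 to 1.58 without, groups that did not overlap. The part of any such cells in the results was not tested, and fewer cells of a type and less RNA per cell cannot be told apart.

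In EB3 the neighbours covered a wide range of levels. Their means per length were, from high to low, Cbr1 (73.1 RPKM), Morc3 (55.5), Cbr3 (37.0), Chaf1b (33.8), Dscr3 (22.7), Ttc3 (16.2), Setd4 (9.72), Pigp (4.94), Dopey2 (4.27), Hlcs (4.05), Ripply3 (1.81) and Cldn14 (0.0681). The EB3 values of Cbr3 and Chaf1b overlapped, as did those of Hlcs with both Pigp and Dopey2, so the order of these genes is not settled by 3 cultures. The other neighbours in this order did not overlap. In the clones the order differed at its top, where Cbr3 (103 RPKM) stood above Cbr1 (81.5) and Morc3 (43.0), and Dopey2 (6.25 RPKM) stood above Pigp (4.35). 11 of the 12 neighbours had a mean of at least 1 RPKM over the 6 libraries and were tested. Cldn14, a tight junction protein best known from the inner ear and kidney, was not. It had 2 reads in each library except EB3-0, which had 4, and its level ran from 0.0485 to 0.101 RPKM, so no fold is given.

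**Figure D1:**
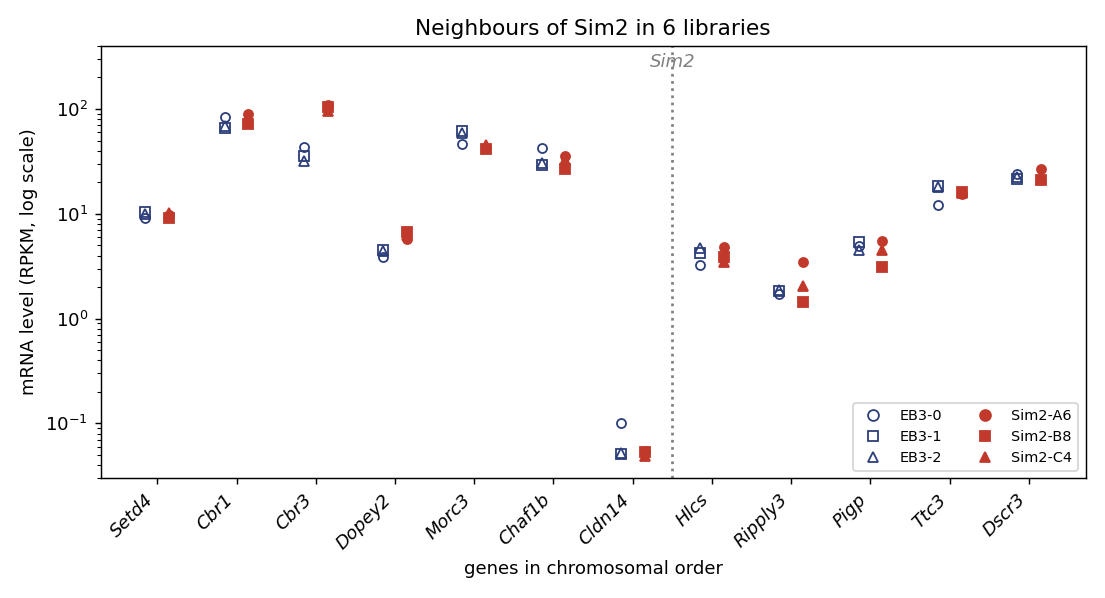
mRNA level of the 12 neighbours in each library, in RPKM on a log scale, with the genes in chromosomal order and the dotted line at the place of Sim2. Each point is 1 library; the Cbr3 values of the 3 clones (96.1 to 108.2 RPKM) lie above those of the 3 EB3 cultures (31.6 to 43.3 RPKM), and most other genes overlap.

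Among the 11 tested neighbours 1 was higher in the clones (Cbr3) and 0 were lower, at an adjusted p under 0.05 from limma over all 11595 tested genes. Over all tested genes, 0.345% were called higher and 0.354% lower. Those 81 calls were split into 40 higher and 41 lower, and into 26 and 40 with each library centred on its median, or 116 and 74 with GC and length trends taken out. At an unadjusted p under 0.05 there were 3 neighbours (Cbr3, Dopey2 and Morc3; 27.3%) against 17.8% of all tested genes. In the same 3 neighbours the clone values did not overlap the EB3 values, which held for 26.1% of all tested genes (12.7% higher and 13.4% lower). The median log2 fold change of the neighbours was 0.00 (-0.0021), close to -0.01 over all tested genes. The median size of the change was 0.157 for the neighbours and 0.157 for all tested genes. 5 of the neighbours had a positive change and 6 a negative one.

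Cbr3 (chromosome 16, 93683464 to 93691236, plus strand) starts 402.0 kb before Sim2. A6, B8 and C4 had 108.2, 104.8 and 96.1 RPKM, and EB3-0, EB3-1 and EB3-2 had 43.3, 36.0 and 31.6 RPKM. The lowest clone was thus well above the highest EB3 culture. The mean rose from 37.0 ± 5.90 to 103 ± 6.20 RPKM (SD, n = 3 each), or 2.79-fold. The change was 1.48 ± 0.12 (SE) on the log2(RPKM + 0.5) scale, with a 95% confidence interval of 1.19 to 1.76 and an adjusted p of 0.00378 from limma. It ranked 6 among all tested genes from the highest change down. The exact permutation test (2-sided) gave p = 0.1, the smallest that 3 libraries against 3 can give. Each clone showed it to a similar extent, with log2 ratios to the EB3 mean of 1.55, 1.5 and 1.38 for A6, B8 and C4. Reads per library were 3152 to 3172 in the clones and 964 to 1380 in EB3, so counting error was small beside the spread between cultures.

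Cbr1 (chromosome 16, 93608082 to 93610594, plus strand) lies on the far side of Cbr3 from Sim2, 477.4 kb from the Sim2 start. It encodes the better known carbonyl reductase, which also acts on prostaglandins. A6, B8 and C4 had 89.7, 71.3 and 83.4 RPKM, and the EB3 cultures 0, 1 and 2 had 84.1, 66.3 and 69.0 RPKM. Both groups covered nearly the same range. The change was 0.16 ± 0.12 (SE, interval -0.13 to 0.44, limma, adjusted p = 0.555). By exact permutation of the libraries p was 0.3. The interval excludes a change of the size seen in Cbr3. The Cbr1 transcript has a copy of 713 bases at 94.8% identity at chr16:93630153-93630864, between Cbr1 and Cbr3. The deposited table lists no gene there, and the value of Cbr1 is uncertain where reads were shared.

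The difference between these neighbouring paralogs was then tested within libraries. The ratio of Cbr3 to Cbr1 RPKM was 1.21, 1.47 and 1.15 for A6, B8 and C4, and 0.515, 0.543 and 0.459 for the EB3 cultures 0, 1 and 2. Cbr3 was the more abundant transcript in every clone and the less abundant in every EB3 culture. The mean ratio was 1.28 ± 0.170 in the clones and 0.506 ± 0.0431 in EB3 (SD, n = 3 each). On the log2 scale the ratio differed by 1.32 between groups (exact permutation test, 2-sided, p = 0.1, the smallest possible). Both genes together came to 185 ± 11.7 RPKM with the transgene and 110.1 ± 15.0 RPKM without it.

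**Figure D2:**
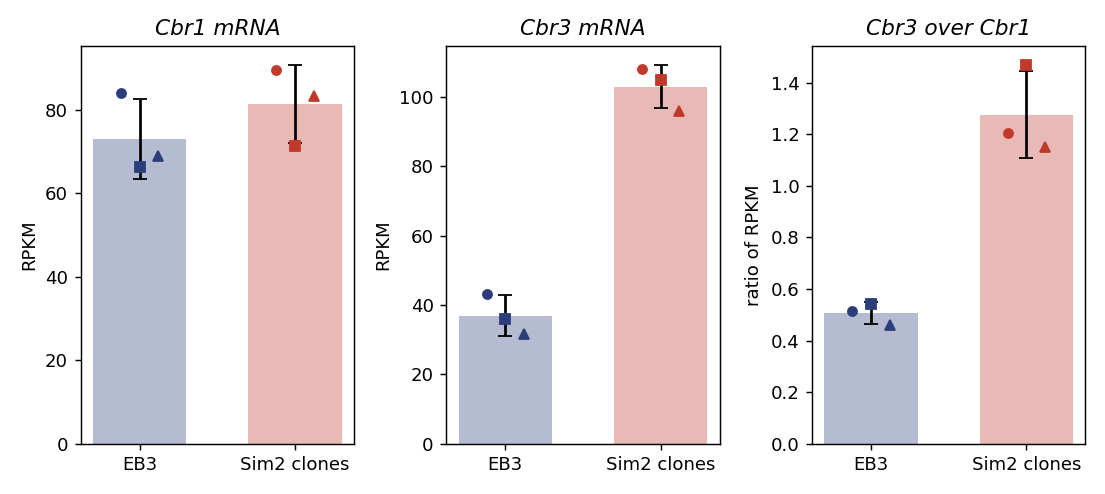
RPKM of Cbr1 (left) and Cbr3 (middle), and their ratio (right), in EB3 and in the Sim2 clones; bars are means, error bars the SD and points the 3 libraries of each group. The Cbr3 to Cbr1 ratio is 0.506 in EB3 and 1.28 in the clones, while Cbr1 alone covers similar ranges.

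Dopey2 (chromosome 16, 93712152 to 93810833, plus strand), the next gene toward Sim2, encodes a large protein of the Dopey family that works in traffic between endosomes and the Golgi apparatus. A6, B8 and C4 had 5.78, 6.64 and 6.33 RPKM, while the EB3 cultures 0, 1 and 2 had 3.86, 4.55 and 4.40 RPKM. All clones were above all EB3 cultures. The change of 0.50 ± 0.13 (SE, interval 0.20 to 0.80) had an unadjusted p of 0.00496 and an adjusted p of 0.116 from limma, so it was not called. Mean RPKM was 6.25 ± 0.432 with the transgene against 4.27 ± 0.364 without it (SD, n = 3 each). Its cDNA is long (7316 bases), and with the GC and length trends of each library taken out the change was 0.26 (limma, adjusted p = 0.228). Over the other 15 settings it stayed between 0.44 and 0.55, never called.

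Morc3 (chromosome 16, 93832366 to 93876318, plus strand) encodes an ATPase of nuclear bodies that recognises methylated histone tails. It was the neighbour with the most negative change. A6, B8 and C4 had 42.5, 41.5 and 45 RPKM, below the 46.1, 61.4 and 59.1 RPKM of EB3 cultures 0, 1 and 2. The clones were below all EB3 cultures, though EB3-0 stood close to them. The change was -0.36 ± 0.12 (SE, interval -0.63 to -0.08, limma, adjusted p = 0.181). Without EB3-0 it was -0.48 with an adjusted p of 0.0220 from limma, in a fit that called 3.44% of tested genes lower. Without EB3-1 it was -0.28 (adjusted p = 0.461), and with GC and length trends taken out -0.30 (adjusted p = 0.0688).

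The remaining neighbours before Sim2 gave values in both groups that overlapped. Setd4, a SET-domain methyltransferase (chromosome 16, 93583706 to 93604060), had 9.83, 9.06 and 10.1 RPKM in A6, B8 and C4 and 9.03, 10.3 and 9.85 RPKM in EB3-0, EB3-1 and EB3-2. Its change of -0.01 ± 0.11 (SE, interval -0.27 to 0.25, limma, adjusted p = 0.982) was among the smallest of the neighbours. It is read from the opposite strand to Cbr1 and its start is 481.4 kb from that of Sim2. Chaf1b (chromosome 16, 93884146 to 93906351), a subunit of the CAF-1 histone chaperone that deposits histones on newly copied DNA, had 36.0, 26.6 and 32.8 RPKM in clones, and 42.0, 29.0 and 30.5 RPKM in EB3. The change was -0.08 ± 0.16 (SE, interval -0.46 to 0.30, limma, adjusted p = 0.837). In EB3 the spread rested on EB3-0, which was higher than the other cultures.

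After Sim2, Hlcs (chromosome 16, 94350912 to 94509463, minus strand) encodes holocarboxylase synthetase, which attaches biotin to carboxylases. It had 4.79, 3.85 and 3.47 RPKM in A6, B8 and C4 and 3.24, 4.18 and 4.73 RPKM in EB3-0, EB3-1 and EB3-2. Both groups covered the same range, and the change was 0.00 (-0.0021) ± 0.18 (SE, interval -0.42 to 0.41, limma, adjusted p = 0.997). Ripply3 (chromosome 16, 94550029 to 94558542), a corepressor that works with T-box factors in pharyngeal development, was low, with 3.44, 1.45 and 2.04 RPKM in clones, and 1.73, 1.83 and 1.88 RPKM in EB3. A6 was the highest of the 6 libraries and B8 the lowest. The change was 0.22 ± 0.25 (SE, interval -0.36 to 0.79, limma, adjusted p = 0.699), on 57 to 132 reads per library. Stretches of at least 100 bases at 90% identity or more to its transcript occur at 5927 other places in the genome, so its value is uncertain.

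Pigp and Ttc3 start head to head. Pigp (chromosome 16, 94586059 to 94592622, minus strand) encodes a subunit of the enzyme that begins the synthesis of GPI anchors, and Ttc3 (94592346 to 94690828, plus strand) a ubiquitin ligase with tetratricopeptide repeats. The deposited genes overlap by 277 bases, and strand was not stated to be used, so reads in that stretch cannot be told apart. Pigp had 5.45, 3.12 and 4.49 RPKM in A6, B8 and C4 and 4.89, 5.36 and 4.56 RPKM in EB3-0, EB3-1 and EB3-2. B8 was the lowest, and the change was -0.19 ± 0.19 (SE, interval -0.64 to 0.25, limma, adjusted p = 0.656). A copy of 633 bases of its transcript, at 96.5% identity, lies on chromosome 6. Ttc3 had 15.5, 16 and 15.9 RPKM in the clones, a narrow range, and 12.2, 18.3 and 18.2 RPKM in EB3, where EB3-0 was the lowest. Its change was -0.01 ± 0.16 (SE, interval -0.38 to 0.35, limma, adjusted p = 0.974). Dscr3 (chromosome 16, 94719331 to 94748236, minus strand), a relative of the retromer subunit Vps26, had 26.7, 21.2 and 21.9 RPKM in clones, and 24.0, 21.7 and 22.5 RPKM in EB3. The groups overlapped, and the change was 0.02 ± 0.11 (SE, interval -0.24 to 0.29, limma, adjusted p = 0.936).

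By the distance between start sites, Cbr3 was neither the nearest nor the farthest tested neighbour. Chaf1b, at 201.4 kb, was the nearest by this measure and its interval included 0. Setd4 and Cbr1 lay farther than Cbr3 on the same side, with intervals that included 0. Dopey2 (373.4 kb, interval 0.20 to 0.80) and Morc3 (253.1 kb, interval -0.63 to -0.08) lay nearer than Cbr3 on that side. Their intervals left out 0 before adjustment, and neither was called. All 5 tested neighbours after Sim2, with start sites at 424.0 to 662.7 kb, had intervals that included 0. Of these, Hlcs is read toward Sim2, so its far end, at 94350912, lies close to the end of Sim2 at 94348638. In the windows of the same width just before and just after, 10 and 5 genes are listed, of which 2 and 2 were tested and 0 were called. At an unadjusted p under 0.05 there were also 0, and these genes (Fam165b, Rcan1, Dyrk1a and Ets2) had changes from -0.19 to 0.10. On the rest of chromosome 16, with Sim2 left out, 346 genes were tested, 0 were called higher and 3 lower (limma), with a median change of -0.01 and 16.8% at an unadjusted p under 0.05. Cbr3 was therefore the one gene of chromosome 16 besides Sim2 to be called higher.

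**Figure D3:**
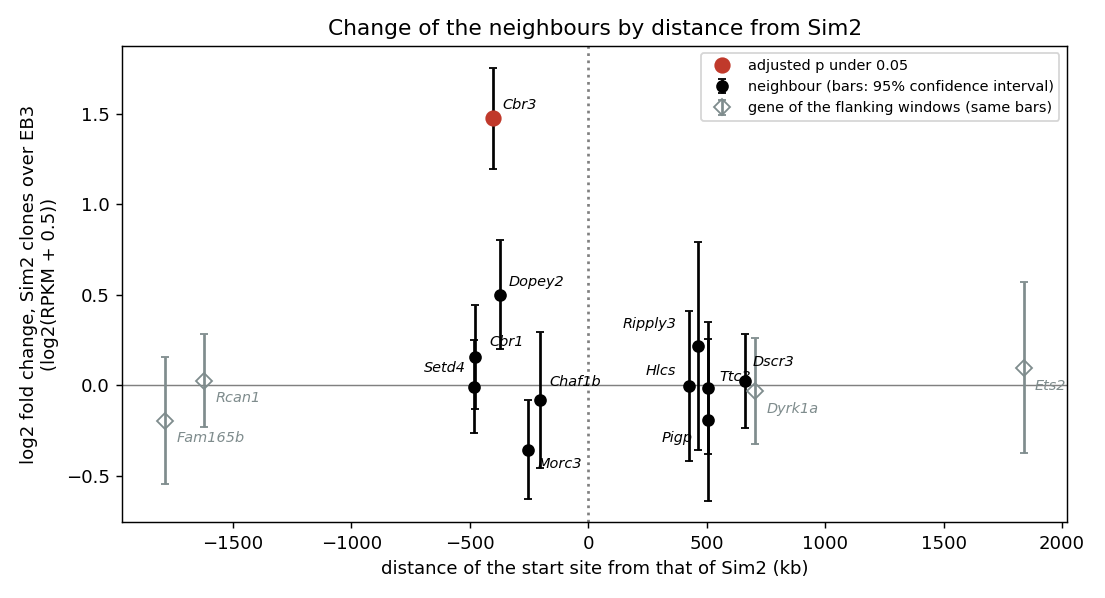
Log2 fold change (Sim2 clones over EB3, log2(RPKM + 0.5) scale) of the 11 tested neighbours and of 4 tested genes in the windows beside them, against the distance of the start site from that of Sim2 in kb; bars are 95% confidence intervals. Only the interval of Cbr3, at 1.19 to 1.76, lies above 1, and those of Dopey2 and Morc3 leave out 0 before adjustment for the number of genes.

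Partners, substrates and relatives of the neighbours, with NRF2 targets, were then followed from 10 lists of 91 genes, of which 77 were tested. 0 were called in either direction (limma, adjusted p), where 0.345% of all tested genes were called higher and 0.354% lower. Before adjustment, 20 of them (26.0%) had a p under 0.05, against 17.8% of all tested genes. Among 10 tested genes from a list of carbonyl-reducing and related enzymes, the median change was -0.01. The largest were Ptgr1, a prostaglandin reductase (0.51 ± 0.15, SE, limma, adjusted p = 0.137), and Cbr4, a mitochondrial relative (-0.50 ± 0.19, adjusted p = 0.217). Cbr2, listed with them, had mean levels of 0.0130 and 0.0372 RPKM in the clones and EB3 and was not tested. Cbr3 and Cbr1 are known targets of NRF2, the factor that induces antioxidant enzymes. Of 21 tested NRF2 targets 9 (42.9%) had an unadjusted p under 0.05, against 17.8% of all tested genes, and their median change was 0.18, against -0.01. The largest were in Gpx2, a glutathione peroxidase (1.52 ± 0.60, adjusted p = 0.241), whose value rested on B8 at 237.0 RPKM against 52.5 in A6 and 33.1 in C4, and in Cat, which encodes catalase (0.52 ± 0.10, adjusted p = 0.0716). The study, with edgeR on the same libraries, called Cat higher and listed it among its putative SIM2 targets. Nqo1, a quinone reductase often measured as the reporter of the NRF2 pathway, had a change of 0.47 ± 0.14 (limma, adjusted p = 0.148). Hmox1, which breaks down haem, was also among those 9 targets but had the opposite sign (-0.33 ± 0.12, adjusted p = 0.202). A part of NRF2 in these values was not tested.

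For the other neighbours the listed partners, substrates and relatives likewise gave 0 calls. Of 8 genes of histone deposition with Chaf1b, the largest changes were Asf1a at -0.30 ± 0.09 and Rbbp4, a CAF-1 subunit, at -0.26 ± 0.10 (SE, limma, adjusted p = 0.160 and 0.248). Chaf1a, the large CAF-1 subunit, was at -0.03 ± 0.09 (adjusted p = 0.900). Among the 6 other subunits of the Pigp enzyme, Pigy was at -0.58 ± 0.18 (adjusted p = 0.154) and Pigh at -0.24 ± 0.11 (adjusted p = 0.321). Of 9 biotin-related genes, Pcca, a subunit of propionyl-CoA carboxylase and so a substrate of Hlcs, was at -0.39 ± 0.15 (adjusted p = 0.238) and Acaca at 0.13 ± 0.12 (adjusted p = 0.634). Of 3 tested Morc relatives, Morc1 was at -0.49 ± 0.20 (adjusted p = 0.257) and Morc4 at 0.16 ± 0.20 (adjusted p = 0.717). Of 7 tested claudins, Cldn3 was at 0.73 ± 0.30 (adjusted p = 0.261) and Cldn9 at 0.64 ± 0.24 (adjusted p = 0.213), with a median of 0.43 and a wide spread between clones. The 6 retromer and retriever genes, led by Vps26a at -0.17 ± 0.11 (adjusted p = 0.450) and Vps29 at -0.16 ± 0.09 (adjusted p = 0.391), had a median of -0.08. Of the 4 genes of the Dopey and Mon2 complex, Atp9b was at 0.22 ± 0.13 (adjusted p = 0.420) and Mon2 at 0.10 ± 0.13 (adjusted p = 0.724). Akt1, a kinase and a substrate of Ttc3, was at 0.36 ± 0.12 (adjusted p = 0.182).

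The tested genes whose values over the 6 libraries were most like those of Cbr3 were Dazap2, Sucla2 and Poldip3, with Pearson's r of 0.998, 0.997 and 0.996 on log2(RPKM + 0.5). These coefficients are over 6 libraries that fall into 2 groups, and are a description. Dazap2 and Poldip3 lie on chromosome 15 and Sucla2 on chromosome 14, and their changes were 0.40, 0.46 and 0.51, smaller than that of Cbr3. Sucla2, a subunit of a mitochondrial succinate-CoA ligase, had 65.0, 64.9 and 60.4 RPKM in A6, B8 and C4 and 46.9, 44.5 and 42.3 RPKM in EB3-0, EB3-1 and EB3-2. Among the neighbours Dopey2 was the most like Cbr3, at rank 439 of 11594, followed by Cbr1 at rank 2245.

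Cbr3 was called under each of the 16 other settings, with changes of 1.37 to 1.59 and adjusted p from 0.000127 to 0.0353 (limma). The highest adjusted p was without A6. Averaging EB3-1 with EB3-2 gave an adjusted p of 0.0203. The share of tested genes called higher, against which these calls are read, was 0.328% with a pseudocount of 0.1, 0.345% with 1, 0.0779% with no filter on low values, 0.353% at a mean of at least 5 RPKM, 0.5% with quantile normalization, 0.224% with libraries centred on the median, 1.04% with GC and length trends taken out, 0.121% without the trend in limma and 0.285% with voom on recovered reads. It was 0.0518% without A6, 0.0605% without B8, 0.043% without C4, 2.53% without EB3-0, 0.0345% without EB3-1, 0.0345% without EB3-2 and 0.0345% with EB3-1 and EB3-2 averaged.

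**Figure D4:**
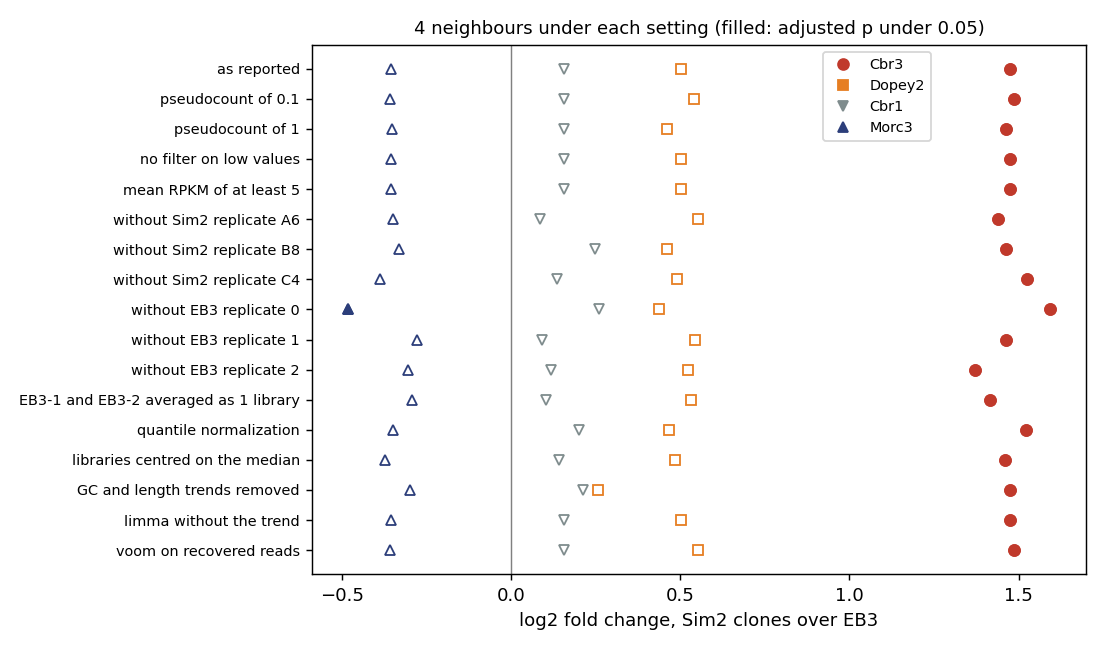
Log2 fold change of Cbr3, Dopey2, Cbr1 and Morc3 (horizontal axis, Sim2 clones over EB3) under the reported setting and each of 16 others (vertical axis); filled symbols have an adjusted p under 0.05. Cbr3 stays between 1.37 and 1.59 and is filled throughout, and Morc3 is filled only without EB3-0.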

How the data were processed

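The authors mapped paired reads of 100 bases to mm9 with BWA at its default parameters, summed exon coverage per gene with a custom pipeline and deposited RPKM values for each library. The study calls the genes RefSeq genes. Versions, the annotation release, use of strand and treatment of reads with several good positions are not given in the sources used here. RPKM times cDNA length came out as whole multiples of 1 read (tolerance 0.01 read) for 100% of values, which gave the depth. Mates of a pair may be counted apart, so independent fragments are fewer.

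Values were transformed to log2(RPKM + 0.5), which understates the change of low genes, and the 11595 genes with a mean of at least 1 RPKM were tested with limma 3.58.1 (R 4.3.3; eBayes with trend, no covariate). The authors tested with edgeR and called more genes than the main fit here. Here the deposited unit, RPKM, set the main test, and limma-voom on the recovered reads was an alternative. P-values were adjusted by Benjamini-Hochberg over all tested genes, and under 0.05 is called. Single values also had a 2-sided exact permutation test over libraries. The limma p-values weigh the group difference against the spread between these cultures, with variances drawn toward a trend over all tested genes. That spread pools separate clones with cultures of a single parental line, so variation between clones without the transgene was not measured. GC content was known for 96.1% of tested genes, and trends were natural splines with 5 degrees of freedom. Sequences were read from the mm9 genome with pysam 0.24.0, and transcripts were searched against it with blastn 2.17.0 (at least 100 bases, 90% identity). The method was tested on simulated data with independent libraries of equal spread. No simulated library stood apart as EB3-0 does here, so that test does not cover its effect on the calls.

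Every neighbour was described, and from each list of partners, substrates, relatives or NRF2 targets the 2 largest changes, since none was called. 1 gene that this rule names is not reported here. Chaf1a, Nqo1, Hmox1 and Cbr2 fall outside this rule and were chosen after their values were seen. The members and lists were chosen with earlier results of these data known.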

Additional observations from a re-analysis of the deposited data

How the results depend on the processing

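The call of Cbr3, the absence of a call for Cbr1, and the direction of the Cbr3 to Cbr1 ratio (difference of 1.21 to 1.39) were the same under all 16 other settings. The count of neighbours called lower was 0, and leaving out 1 library moved it between 0 and 1, the latter being Morc3 without EB3-0. Genes with a change near 0 took either sign. Leaving out 1 library gave -0.056 to 0.036 for Setd4, -0.18 to 0.082 for Chaf1b, -0.14 to 0.11 for Hlcs, -0.057 to 0.45 for Ripply3, -0.35 to 0.00 (0.0049) for Pigp, -0.20 to 0.080 for Ttc3 and -0.077 to 0.086 for Dscr3. With EB3-1 and EB3-2 averaged as 1 library, Setd4 was at 0.017, Hlcs at 0.064 and Ttc3 at 0.080. The cause was not tested.

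The number of genes called over the whole table was 81, and 28 without a filter on low values, 30 with limma without the trend, 190 with GC and length trends removed and 6 with EB3-1 and EB3-2 averaged. It was 20 without A6, 17 without B8, 7 without C4, 692 without EB3-0 and 6 without EB3-1 or without EB3-2. Cldn14, at 2 to 4 reads, was too shallow to compare. No paired analysis was possible because the clones and the EB3 cultures share no replicate names.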

Other observations

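EB3-0 differed from the other EB3 cultures in several neighbours, in both directions. On the log2(RPKM + 0.5) scale EB3-0 minus the mean of EB3-1 and EB3-2 was 0.31 for Cbr1 (cDNA of 1081 bases), 0.36 for Cbr3 (1167 bases) and 0.49 for Chaf1b (1913 bases). It was -0.38 for Morc3 (4179 bases), -0.40 for Hlcs (4833 bases), -0.56 for Ttc3 (7295 bases) and -0.19 for Dopey2 (7316 bases). It was -0.02 for Pigp (907 bases, the shortest), -0.08 for Ripply3 (1529 bases), -0.15 for Setd4 (1825 bases) and 0.12 for Dscr3 (2405 bases), so the sign did not follow cDNA length throughout. Its part in the results was not tested.

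The clones differed among themselves most in Ripply3, with an SD of 0.51 on the log2 scale against 0.05 in EB3, and in Pigp, with 0.36 against 0.11. In Ttc3 the order was the other way, with 0.03 in the clones and 0.32 in EB3.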
